A study of Mus musculus with 12 samples.

Results

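The 9 genes described here encode the kinases, adaptors and second enzymes that act directly beneath the pre-B cell receptor (pre-BCR): Syk, Blnk, Btk, Lyn, Blk, Plcg2, Pik3ap1, Prkcb and Zap70. They were chosen by gene symbol, with earlier results of these data known, by a rule that sets no threshold on a measured value. All 9 were found among the 12151 genes of the table. The 12 RNA libraries came from pre-B cells that were cultured from bone marrow of mice aged 6 to 12 weeks and transformed with BCR-ABL1, as a model of human B-ALL (acute leukemia of B cell precursors). The comparisons ask how activation of β-catenin changes expression, and whether this depends on the Ikaros factors IKZF1 and IKZF3.

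All 4 groups carried BCR-ABL1 and the Ctnnb1Ex3fl/+ genotype, in which exon 3 of Ctnnb1, the β-catenin gene, is flanked by loxP sites on 1 allele. ERT2 WT cells were electroporated with Cas9 ribonucleoprotein and nontargeting guides (sgNTC) and transduced with a GFP vector for ERT2, the ligand-binding domain without Cre. CRE WT cells had the same nontargeting guides and a GFP vector for Cre-ERT2, which removes the floxed exon once 4-hydroxytamoxifen (4-OHT) is present and so stabilizes β-catenin. ERT2 KO and CRE KO cells received the same vectors after guides against Ikzf1 and Ikzf3. Each group had 3 libraries, and all 12 libraries, ERT2 controls included, are taken as day 1 after 4-OHT. The lines were grown from single cells and sorted for GFP, and which clone gave which library is not stated in the sources used here. Nor do the labels say whether the replicates are separate cultures, so the p-values measure the spread between these libraries, which may be technical.

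In developing B cells, the pre-BCR signals through CD79A and CD79B. SRC-family kinases such as LYN and BLK phosphorylate these chains, SYK docks on them, and SYK then phosphorylates the adaptor BLNK, which brings BTK and PLCγ2 together. PLCγ2 produces the second messengers that release calcium and activate protein kinase C β, encoded by Prkcb, while the adaptor BCAP, encoded by Pik3ap1, links the receptor to phosphoinositide 3-kinase. ZAP-70, best known from T cells, is the closest relative of SYK.

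The promoters of the 4 members that were higher in Cre-ERT2 than in ERT2 libraries of both backgrounds (Syk, Plcg2, Prkcb and Zap70), and of Pik3ap1, the member with the largest rise in the KO-labelled libraries, are shown so that their motif content can be read beside the values. Each runs from 250 bases before to 50 bases after an annotated start in RefSeq (build GRCm38.p6), 5′ to 3′ on the strand of the gene. Capitals mark the Ikaros core GGGAA (or TTCCC on the other strand) and the TCF/LEF core CTTTG (or CAAAG), and no base belonged to both motifs.
Syk, chr13:52583187-52583486, plus strand: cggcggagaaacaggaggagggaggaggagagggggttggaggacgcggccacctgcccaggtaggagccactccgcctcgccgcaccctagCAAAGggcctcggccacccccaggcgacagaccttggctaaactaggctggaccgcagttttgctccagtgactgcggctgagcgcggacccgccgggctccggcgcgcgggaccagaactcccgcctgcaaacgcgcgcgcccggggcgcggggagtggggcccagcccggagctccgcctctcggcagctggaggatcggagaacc
Plcg2, chr8:117498025-117498324, plus strand: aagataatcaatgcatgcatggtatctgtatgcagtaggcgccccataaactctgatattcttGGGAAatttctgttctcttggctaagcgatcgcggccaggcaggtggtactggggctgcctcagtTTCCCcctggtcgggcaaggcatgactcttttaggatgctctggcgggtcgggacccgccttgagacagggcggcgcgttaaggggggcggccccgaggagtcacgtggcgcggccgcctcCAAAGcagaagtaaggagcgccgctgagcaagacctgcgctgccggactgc
Prkcb, chr7:122288875-122289174, plus strand: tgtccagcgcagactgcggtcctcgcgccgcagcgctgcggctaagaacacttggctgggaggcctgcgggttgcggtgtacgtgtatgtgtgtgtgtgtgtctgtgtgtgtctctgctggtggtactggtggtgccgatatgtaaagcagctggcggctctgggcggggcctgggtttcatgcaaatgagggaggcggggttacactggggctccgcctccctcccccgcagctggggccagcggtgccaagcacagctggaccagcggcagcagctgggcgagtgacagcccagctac
Zap70, chr1:36761548-36761847, plus strand: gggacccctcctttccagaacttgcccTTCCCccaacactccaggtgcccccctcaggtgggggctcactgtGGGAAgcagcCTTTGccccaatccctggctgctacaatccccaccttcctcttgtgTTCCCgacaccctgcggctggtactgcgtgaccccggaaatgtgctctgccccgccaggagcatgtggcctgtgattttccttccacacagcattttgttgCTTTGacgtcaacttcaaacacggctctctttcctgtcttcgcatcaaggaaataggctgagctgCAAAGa
Pik3ap1, chr19:41385053-41385352, minus strand: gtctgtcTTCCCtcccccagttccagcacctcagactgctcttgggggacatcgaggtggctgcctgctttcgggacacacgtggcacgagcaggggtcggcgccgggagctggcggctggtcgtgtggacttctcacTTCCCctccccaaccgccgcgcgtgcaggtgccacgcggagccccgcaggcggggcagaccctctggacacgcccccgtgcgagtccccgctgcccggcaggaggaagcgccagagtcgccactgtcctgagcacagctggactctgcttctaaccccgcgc

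These windows differed widely in the letters searched. The first of the 3 Zap70 promoters held 3 Ikaros cores and 3 TCF/LEF cores, the Plcg2 promoter 2 and 1, the first of the 2 Syk promoters 0 and 1, the Prkcb promoter 0 of either, and the Pik3ap1 promoter 2 Ikaros cores and 0 TCF/LEF cores. RefSeq gave 10 promoters for 7 of the 9 members, with 2 for Syk and 3 for Zap70, and the windows shown are the first of each. The second Syk promoter held 1 Ikaros core and 1 TCF/LEF core, the second Zap70 promoter 1 and 0, and the third 0 and 1. Blk (chr14:63372836-63417037, minus strand, GRCm38 in GENCODE vM21) and Lyn (chr4:3678115-3813122, plus strand) were not matched. The promoters of Blnk (chr19:40994172-40994471) and Btk (chrX:134583091-134583390), both on the minus strand, held 1 and 2 Ikaros cores and 0 TCF/LEF cores. An Ikaros core stood in 7 of the 10 windows, against 62.7% of all 32851 promoters of this length, and a TCF/LEF core in 5 of 10, against 53.9%. The E-box CANNTG, which may overlap the other motifs, was found in 10 of 10 (72.3% of all promoters), and the EBF1 core CCCNNGGG in 1 of 10 (13.7%), the third Zap70 window. Both strands were searched throughout, and a match describes the letters only.

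Values are the authors' normalized log2 values. Medians of the 12 libraries lay between 9.06 and 9.11, and the table gives no counts, so sequencing depth is unknown. Expression of the edited genes was examined first. Ikzf3 was 0.65 ± 0.04 lower on the log2 scale (SE) in ERT2 KO than in ERT2 WT libraries, with limma's adjusted p = 5.2e-08. Ikzf1 was 1.01 ± 0.02 higher, with 14.75, 14.74 and 14.76 against 13.75, 13.74 and 13.73. Ikzf1 RNA did not show a loss, so the ERT2 KO and CRE KO groups are called KO-labelled. This RNA level does not measure the protein. The paper reports that the deletion was checked by western blot in its single-cell clones. Ctnnb1 differed little between CRE WT and ERT2 WT libraries (0.06 ± 0.03, limma adjusted p = 0.128). It was 0.13 ± 0.03 higher in CRE KO than in ERT2 KO libraries (adjusted p = 0.0041) and 0.17 ± 0.03 higher in ERT2 KO than in ERT2 WT libraries (adjusted p = 6.7e-05), and this gene-level value says nothing of the removed exon. B lineage markers matched the labelled cell type, with 11 of 11 in the table, whereas 11 of 16 T and NK markers (among them Cd3d, Cd3e, Cd4 and Cd8a), 11 of 13 myeloid markers and 8 of 8 erythroid and megakaryocyte markers were not in it. The 5 T and NK markers present were Cd2, Cd5, Cd28, Nkg7 and Klrb1c. Of these Cd2 was well expressed, with a mean log2 value of 10.73 in ERT2 WT libraries.

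**Figure D1:**
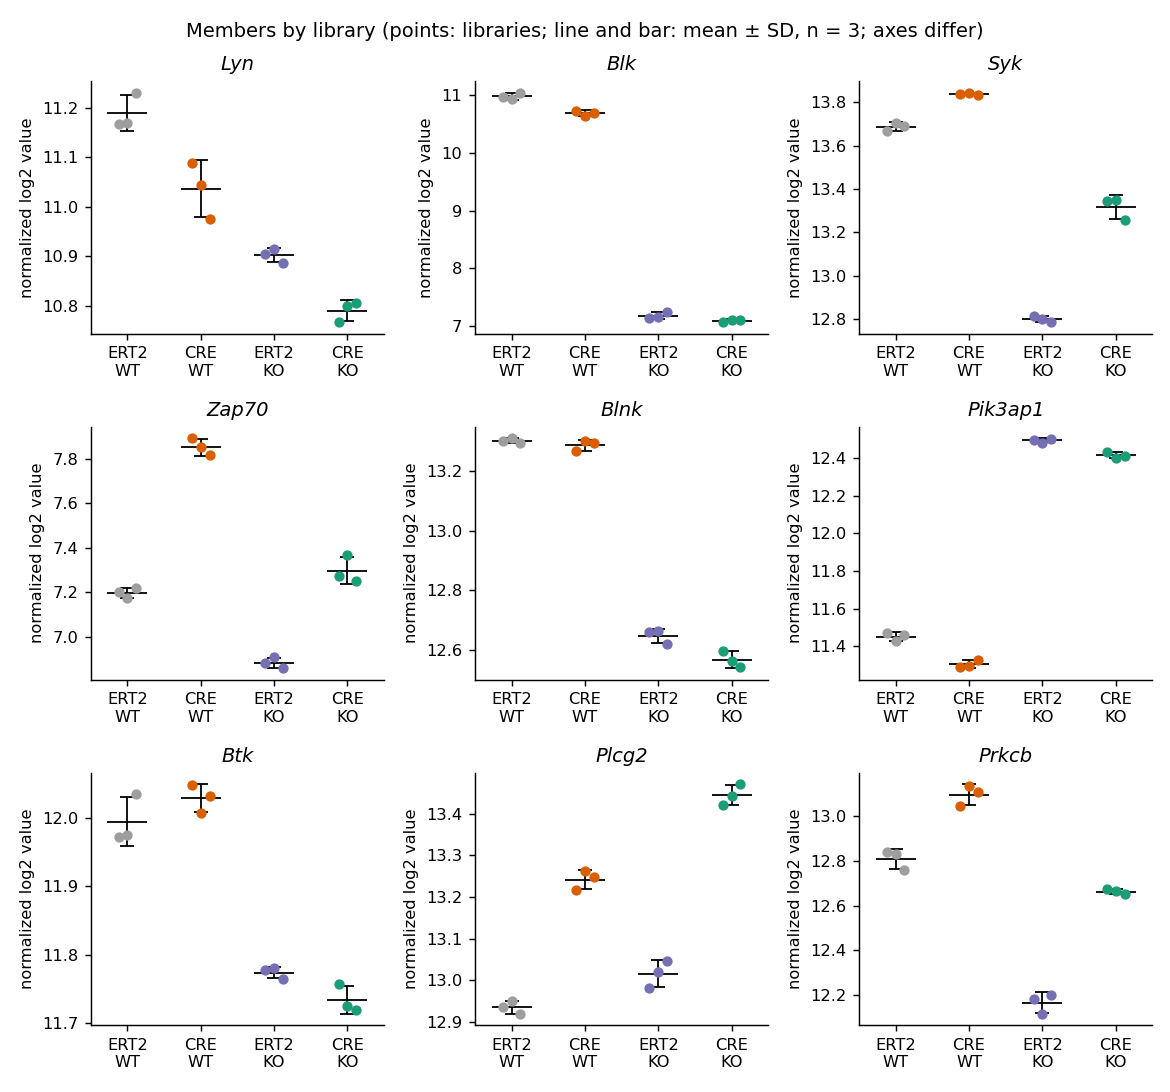
Normalized log2 value of each of the 9 genes (y axis, a separate range per panel) in the 12 libraries, by group (x axis). Points are libraries, and the line and bar give the mean ± SD of 3 libraries. Blk fell from about 11 to about 7 in both KO-labelled groups, and Pik3ap1 was above 12 in each of their 6 libraries.

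The first question was how the KO-labelled cells differed from WT cells without activated β-catenin. All 9 genes differed at an adjusted p under 0.05 (limma, adjusted over all genes, the rule for a called gene throughout), 7 of them lower and 2 higher in ERT2 KO than in ERT2 WT libraries. This comparison called 59% of all genes, 29.3% as lower and 29.8% as higher, so that being called is common here and the sizes carry more than the count. The median absolute log2 change was 0.64 over the 9 genes and 0.10 over all genes. With each library centred on its median, the calls over all genes moved from 3616 higher and 3559 lower to 2866 higher and 4747 lower. The 9 genes then gave 1 higher and 7 lower. In these libraries the summed unlogged level of the 11 B lineage markers was 99504 to 100201, against 139031 to 140276 in ERT2 WT libraries. The list went both ways, with 7 markers lower (Cd24a by −1.07 and Cd79a by −0.79 on the log2 scale), Rag1 (0.32) and Rag2 (0.38) higher, and Pax5 (−0.03) and Ebf1 (−0.05) not called. The 2 myeloid markers present summed to 350 to 370 against 194 to 196, with Lyz2 higher (0.99) and Itgam lower (−0.15). The 5 T and NK markers present summed to 1165 to 1253 against 1965 to 2015. Nkg7 (2.03), Cd28 (0.39) and Cd5 (0.13) were higher, Cd2 (−1.58) was lower and Klrb1c (−0.01) was not called. Their part in the changes of the 9 genes was not tested, and fewer cells of a type cannot be told apart from less RNA per cell in bulk RNA.

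Among the SRC-family kinases, Blk showed by far the larger change. Blk, a kinase largely restricted to B lineage cells, stood at 10.96, 10.94 and 11.05 in ERT2 WT libraries and at 7.13, 7.15 and 7.24 in ERT2 KO libraries. No library of one group came near the other. The log2 change of −3.81 ± 0.04 (limma adjusted p = 1.1e-15) left 7.12% of the ERT2 WT level and ranked 2 among the falls of 12151 genes. CRE WT libraries had 10.73, 10.63 and 10.70, and CRE KO libraries had 7.06, 7.10 and 7.10. Between these groups Blk fell by 3.60 ± 0.04 on the log2 scale, to 8.23% of the CRE WT level, which ranked 3 among the falls. Normalized values near 7 may be compressed by the unstated transformation, in which case these folds are understated.

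Lyn, the SRC-family kinase that both starts and restrains receptor signalling, changed far less. Its values were 11.17, 11.17 and 11.23 in ERT2 WT libraries and 10.90, 10.91 and 10.89 in ERT2 KO libraries, without overlap. This was a fall by 0.29 ± 0.03 on the log2 scale (limma adjusted p = 3.5e-06). CRE WT libraries had 11.09, 11.04 and 10.97 and CRE KO libraries 10.77, 10.80 and 10.80, a fall by 0.25 ± 0.03. The 4 groups were therefore ordered ERT2 WT, CRE WT, ERT2 KO and CRE KO, with no overlap between neighbours in this order.

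Taken within each library, the log2 value of Lyn exceeded that of Blk by 0.21 ± 0.02 (SD, n = 3) in ERT2 WT and by 3.73 ± 0.07 in ERT2 KO libraries. The exact permutation test gave p = 0.1, the smallest that 3 against 3 libraries allow. On the scale of unlogged value per kilobase of merged exons, which allows levels of different genes to be compared approximately, Blk (751 ± 30.3, SD, n = 3) lay above Lyn (573 ± 14.5) in ERT2 WT libraries and far below it in ERT2 KO libraries (53.5 ± 2.18 against 470 ± 4.59). The order of the 2 kinases was thus inverted per length.

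Syk, the kinase that carries the signal from the receptor chains, was lower in the KO-labelled libraries as well. Its values were 13.67, 13.71 and 13.69 in ERT2 WT, 12.81, 12.80 and 12.79 in ERT2 KO, 13.84, 13.84 and 13.83 in CRE WT, and 13.35, 13.35 and 13.26 in CRE KO libraries. No 2 groups overlapped, and CRE WT was the highest and ERT2 KO the lowest group. Syk fell by 0.89 ± 0.03 between the ERT2 groups and by 0.52 ± 0.03 between the CRE groups on the log2 scale, with limma adjusted p = 1.0e-11 and 1.9e-09.

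Zap70 was the weakest of the 9 genes per length in ERT2 WT libraries (49.1 ± 0.77 per kilobase, against 1409 ± 20.0 for Syk). Its log2 values were 7.20, 7.18 and 7.22 in ERT2 WT libraries and 6.88, 6.91 and 6.86 in ERT2 KO libraries. In CRE WT libraries they were 7.89, 7.85 and 7.81, and in CRE KO libraries 7.27, 7.37 and 7.25. Each group was apart from the others, although CRE KO lay only just above ERT2 WT. The change between KO-labelled and WT libraries was −0.31 ± 0.03 with ERT2 and −0.55 ± 0.03 with Cre-ERT2 (limma adjusted p = 4.2e-06 and 1.9e-08).

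The adaptors moved in opposite directions. Blnk, the scaffold for BTK and PLCγ2, stood at 13.30, 13.31 and 13.29 in ERT2 WT and at 12.66, 12.66 and 12.62 in ERT2 KO libraries, a fall by 0.65 ± 0.02 on the log2 scale. CRE WT libraries (13.27, 13.30 and 13.29) overlapped the ERT2 WT libraries, and CRE KO libraries (12.60, 12.56 and 12.54) were the lowest. Pik3ap1, which encodes the BCAP adaptor, was higher in every KO-labelled library, with 12.50, 12.48 and 12.50 in ERT2 KO against 11.47, 11.42 and 11.46 in ERT2 WT libraries. This corresponded to a log2 change of 1.05 ± 0.02, a 2.06-fold rise. With Cre-ERT2 the values were 12.43, 12.40 and 12.41 against 11.29, 11.29 and 11.33, a change of 1.11 ± 0.02. Both adaptors passed the test in both comparisons, with limma adjusted p from 1.9e-13 to 3.4e-11.

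Of the enzymes downstream of the adaptors, Prkcb and Btk fell and Plcg2 rose slightly. Prkcb, protein kinase C β, had 12.84, 12.83 and 12.76 in ERT2 WT and 12.18, 12.11 and 12.20 in ERT2 KO libraries, a fall by 0.64 ± 0.03 on the log2 scale. Btk, the TEC-family kinase that activates PLCγ2, had 11.97, 11.98 and 12.04 against 11.78, 11.78 and 11.76, a fall by 0.22 ± 0.02. Neither gene overlapped between these groups. For Plcg2 the values were 12.94, 12.95 and 12.92 against 12.98, 13.02 and 13.05, a small rise of 0.08 ± 0.02 (limma adjusted p = 0.0082). That call was lost when each library was centred on its median (0.05, limma adjusted p = 0.0985). Per kilobase of merged exons Plcg2 ranked 1 among the 9 genes in each of the 4 groups. Blnk lay close to it in ERT2 WT libraries (1684 ± 9.64 against 1823 ± 19.5, SD, n = 3). Merged exons overstate the length of single transcripts, possibly by unequal amounts between genes, so this rank is approximate.

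With Cre-ERT2 the picture of KO-labelled against WT libraries was similar in count. All 9 genes were again called, 7 lower and 2 higher, where 58.9% of all genes were called, 28.6% lower and 30.4% higher. Centring moved the calls over all genes from 3688 higher and 3473 lower to 2983 higher and 4789 lower, and left the 9 genes at 2 higher and 7 lower. The comparison shares no library with that of the ERT2 groups, but both use limma's shared estimate of the spread. The paper describes clonal lines that were transduced with either vector, so both comparisons may rest on the same clones. Differences between clones cannot then be told apart from those due to the guides. Prkcb fell by 0.44 ± 0.03, Btk by 0.30 ± 0.02 and Blnk by 0.72 ± 0.02 on the log2 scale, while Plcg2 was 0.20 ± 0.02 higher (limma adjusted p = 5.9e-06). All 9 genes had groups without overlap in both comparisons, as did 65.5% of all genes with ERT2 and 63.6% with Cre-ERT2. B lineage markers summed to 96115 to 96686 in CRE KO and 141914 to 143998 in CRE WT libraries, and the 2 myeloid markers to 401 to 433 and 189 to 194. The 5 T and NK markers present summed to 1580 to 1649 and 1850 to 1909. The part of these lists was not tested.

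**Figure D2:**
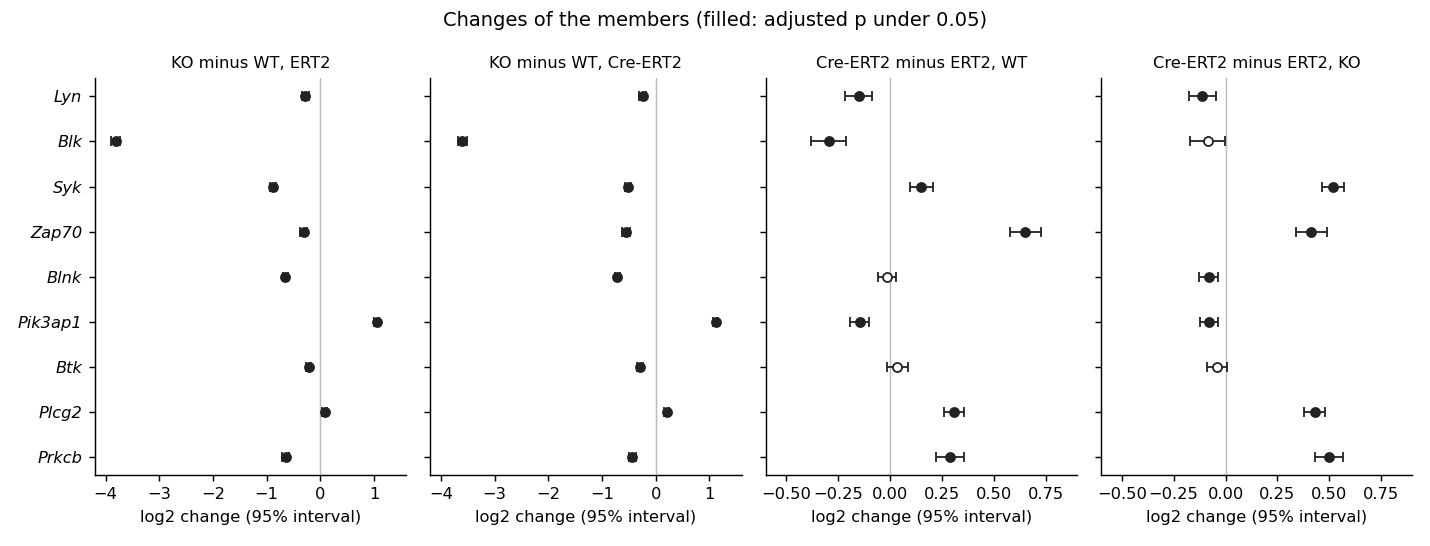
Log2 change (x axis) of each of the 9 genes with its 95% confidence interval from limma, in the 4 comparisons between groups (panels, with separate ranges for the left and right pairs). Filled points have an adjusted p under 0.05. Blk at −3.81 and −3.60 stands apart in the left panels, whereas Syk, Zap70, Plcg2 and Prkcb lie right of zero in both right panels.

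The second question was how activation of β-catenin changed the 9 genes, read from Cre-ERT2 against ERT2 libraries. No group had Cre-ERT2 without the floxed exon, so effects of Cre itself cannot be told apart from those of β-catenin. In WT cells 7 of 9 were called, against 11.9% of all genes. Syk, Zap70, Plcg2 and Prkcb rose (5.93% of all genes were called higher), and Lyn, Blk and Pik3ap1 fell (5.95% called lower). Groups did not overlap for the same 7 genes, against 31.1% of all genes. Median absolute change was 0.15 for the 9 genes and 0.04 for all genes on the log2 scale. B lineage markers summed to 141914 to 143998 in CRE WT and 139031 to 140276 in ERT2 WT libraries, and the 2 myeloid markers to 189 to 194 and 194 to 196. Their part in these changes was not tested.

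Zap70 showed the largest rise of the 9 genes in WT cells, by 0.65 ± 0.03 on the log2 scale or 1.57-fold (limma adjusted p = 9.2e-08), and ranked 21 from the top of all genes. Plcg2 followed, going from 12.94, 12.95 and 12.92 to 13.22, 13.26 and 13.25, a rise of 0.31 ± 0.02. Prkcb went from 12.84, 12.83 and 12.76 to 13.05, 13.14 and 13.11, a rise of 0.29 ± 0.03. Syk rose by 0.15 ± 0.03 only, a 1.11-fold change (limma adjusted p = 0.0016). All 4 were higher in every Cre-ERT2 library than in every ERT2 library.

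The falls in WT cells were modest. Blk fell by 0.30 ± 0.04 on the log2 scale (limma adjusted p = 0.00033), Lyn by 0.15 ± 0.03 (adjusted p = 0.0052) and Pik3ap1 by 0.15 ± 0.02 (adjusted p = 5.0e-04). Blnk and Btk were not called. The 95% interval of the log2 change ran from −0.06 to 0.03 for Blnk and from −0.01 to 0.08 for Btk, and the groups overlapped for both.

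In the KO-labelled cells 7 of 9 genes were called, against 12.6% of all genes. Again Syk, Zap70, Plcg2 and Prkcb rose (7.27% of all genes called higher). Blnk, Lyn and Pik3ap1 fell (5.33% called lower). All 9 genes had groups without overlap, against 28.3% of all genes, although Btk and Blk were not called. Without ERT2 KO replicate 1, or without CRE KO replicate 2, the number called dropped to 4, since the small falls of Blnk, Lyn and Pik3ap1 no longer passed. B lineage markers summed to 96115 to 96686 in CRE KO and 99504 to 100201 in ERT2 KO libraries, and the 2 myeloid markers to 401 to 433 and 350 to 370. The 5 T and NK markers in the table summed to 1580 to 1649 and 1165 to 1253. Their mean log2 values were 8.85 and 6.90 for Cd28, 7.81 and 6.80 for Cd5, and 9.13 and 9.14 for Cd2. Those of Nkg7 were 8.50 and 8.63, and those of Klrb1c 2.41 and 2.40. The part of these lists was not tested. This comparison shares no library with the one in WT cells.

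Syk had the largest rise here, from 12.81, 12.80 and 12.79 in ERT2 KO to 13.35, 13.35 and 13.26 in CRE KO libraries. Its log2 change was 0.52 ± 0.03 or 1.43-fold (limma adjusted p = 3.0e-08), and it ranked 52 from the top of all genes. Prkcb went from 12.18, 12.11 and 12.20 to 12.67, 12.66 and 12.65, a rise of 0.50 ± 0.03. Plcg2 went from 12.98, 13.02 and 13.05 to 13.42, 13.44 and 13.47, a rise of 0.43 ± 0.02. Zap70 rose by 0.41 ± 0.03 (limma adjusted p = 4.0e-06). After these rises Syk and Prkcb in CRE KO libraries still lay below their ERT2 WT libraries, whereas Plcg2 lay above every library of the other 3 groups.

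The falls were small and depended on single libraries. Lyn fell by 0.11 ± 0.03 on the log2 scale (limma adjusted p = 0.0292), Blnk by 0.08 ± 0.02 (adjusted p = 0.0237) and Pik3ap1 by 0.08 ± 0.02 (adjusted p = 0.0238). Leaving out 1 library at a time gave adjusted p up to 0.0963 for Lyn, 0.0913 for Blnk and 0.0794 for Pik3ap1 with limma. Blk, with 7.13, 7.15 and 7.24 against 7.06, 7.10 and 7.10, had a 95% interval of −0.17 to −0.0014 around a change of −0.09 (limma adjusted p = 0.191). Btk had a change of −0.04 with an interval of −0.09 to 0.01.

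Whether the change with β-catenin differed between the backgrounds was tested directly, as the change in KO-labelled minus the change in WT libraries. Syk, Prkcb and Zap70 differed, 3 of 9 genes, against 4.53% of all genes (2.71% with a positive and 1.82% with a negative difference). For Syk the log2 difference was 0.37 ± 0.04 (limma adjusted p = 6.1e-05), a larger rise in the KO-labelled background, and it was called under each of the 21 alternatives with a test. Prkcb had a difference of 0.21 ± 0.04 (adjusted p = 0.0172), which missed the threshold without ERT2 WT replicate 1 (limma adjusted p = 0.0502). In Zap70 the direction was opposite, −0.24 ± 0.05 (adjusted p = 0.0130), with the larger rise in WT cells. Low values such as those of Zap70 may be compressed by the unstated transformation, and unequally between groups of different level. The part of this in the Zap70 difference was not tested.

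Blk and Plcg2 were close to the threshold, with log2 differences of 0.21 ± 0.06 and 0.12 ± 0.03 and limma adjusted p = 0.0535 and 0.0516. Without ERT2 KO replicate 3 both were called, which made 5 of 9 genes. For Blnk the 95% interval of the difference was −0.13 to −0.0014, for Btk −0.15 to −0.01, for Lyn −0.05 to 0.13 and for Pik3ap1 0.0042 to 0.13, none of them called after adjustment. In unlogged units the rise of Syk was 1452 ± 114 (SE) in WT and 3082 ± 222 in KO-labelled libraries, and that of Zap70 84.0 ± 3.80 and 39.3 ± 4.10. The unlogged rises of Prkcb, 1587 ± 208 and 1889 ± 88.2, were closer to each other, with a difference of 302 ± 226. Those of Plcg2 were 1855 ± 100 and 2867 ± 156. The unlogged change of Blk was −375 ± 57.2 in WT and −8.42 ± 3.64 in KO-labelled libraries. It started from means of 2026 in ERT2 WT and 144 in ERT2 KO libraries.

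The related kinases Syk and Zap70 thus changed unequally. Within each library the log2 value of Syk exceeded that of Zap70 by 6.49 ± 0.04 (SD, n = 3) in ERT2 WT, 5.99 ± 0.04 in CRE WT, 5.92 ± 0.02 in ERT2 KO and 6.02 ± 0.05 in CRE KO libraries. The gap narrowed by 0.50 ± 0.03 with β-catenin in WT libraries and widened by 0.10 ± 0.03 in KO-labelled libraries, with an exact permutation p = 0.1 in each case, the smallest possible. Between CRE WT and CRE KO libraries the gaps overlapped (exact permutation p = 0.5). Any compression of the low Zap70 values would enter these gaps, which was not tested.

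**Figure D3:**
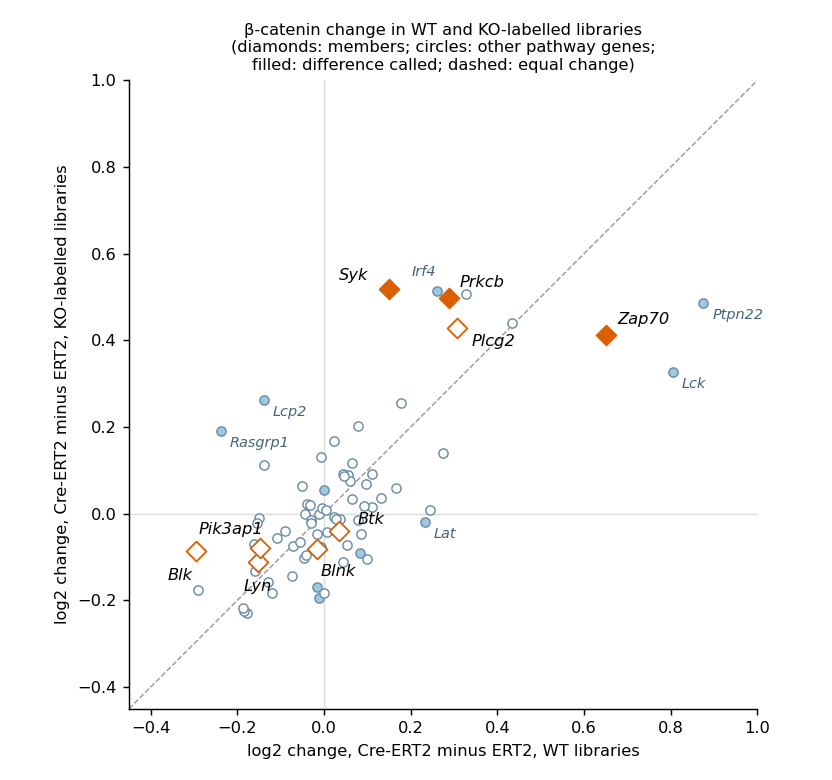
Log2 change with β-catenin in KO-labelled libraries (y axis) against that in WT libraries (x axis) for the 9 genes (diamonds) and 69 other pre-BCR pathway genes (circles). Filled symbols mark a called difference, and the dashed line marks equal change. Syk (0.15 in WT, 0.52 in KO-labelled) lies above the line and Zap70 (0.65 and 0.41) below it.

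The other genes of the pathway give the surroundings of these changes. Of 79 listed genes, 69 were in the table. Between ERT2 KO and ERT2 WT libraries 52 of 69 were called, 18 higher and 34 lower (59% of all genes, 29.8% higher and 29.3% lower), with a median log2 change of −0.08 against 0.00 for all genes. In the receptor and coreceptor group 8 of 10 genes fell and 1 rose. The largest falls were those of Ighm, the μ heavy chain (−0.80 ± 0.02), Cd79a, a signalling chain of the receptor (−0.79 ± 0.02), and Vpreb2, a surrogate light chain gene (−0.57 ± 0.03), which stood beside the falls of Syk and Blnk.

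Of the relatives of the 9 genes, 4 of 16 were higher and 7 lower. Prkch, protein kinase C η, was 2.32 ± 0.04 higher on the log2 scale, from 8.76, 8.65 and 8.82 to 11.03, 11.07 and 11.08. By contrast Prkcq, protein kinase C θ, fell by 0.95 ± 0.04, and so lay on the side of Prkcb. Lck, the SRC-family kinase of T cells, fell by 1.45 ± 0.03, a size between those of Lyn and Blk. Among downstream genes 8 of 28 were higher and 12 lower, with log2 changes from −1.90 to 1.82. The falls included those of Rasgrp1, a Ras activator (−1.90 ± 0.04), and Irf4, a transcription factor (−0.77 ± 0.03). Of 15 negative regulators 5 rose and 7 fell, and this count and that of the downstream genes are read against 29.8% of all genes higher and 29.3% lower. They were led by Ptpn22, a phosphatase that acts on SRC-family kinases and ZAP-70 (1.82 ± 0.05), Cbl, a ubiquitin ligase (−0.59 ± 0.13), and Pag1, which anchors CSK (−0.53 ± 0.03). Each named gene had a limma adjusted p of 0.0018 or less.

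**Figure D4:**
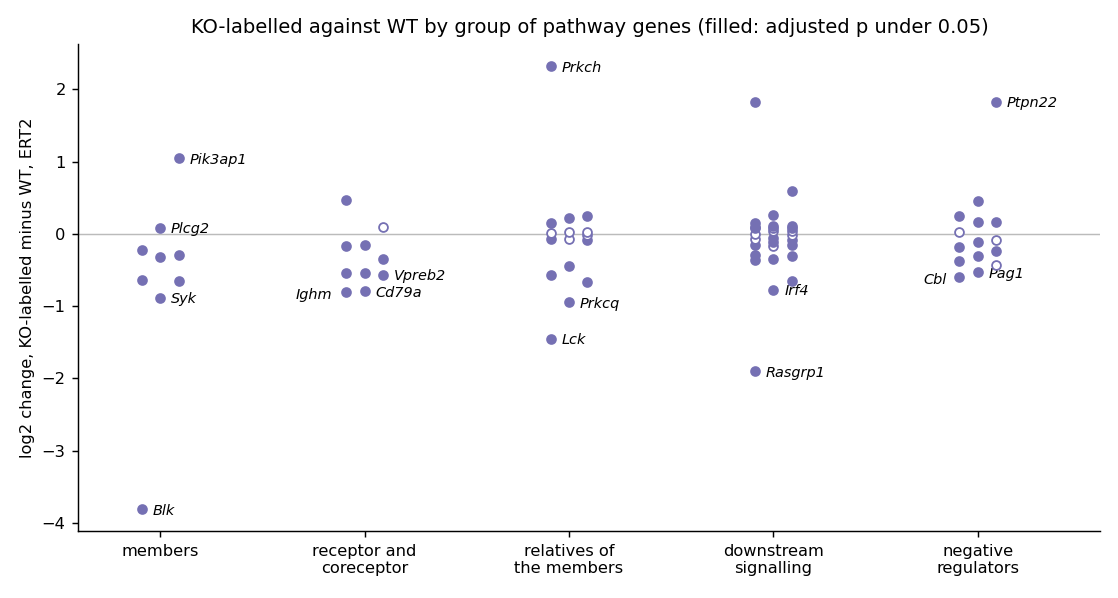
Log2 change between ERT2 KO and ERT2 WT libraries (y axis) for the 9 genes and the 4 groups of other pathway genes (x axis). Each point is a gene, spread sideways for legibility and filled where the adjusted p is under 0.05. Blk at −3.81 lies below all 69 other pathway genes, of which Rasgrp1 at −1.90 is the lowest.

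With Cre-ERT2 56 of 69 pathway genes were called between KO-labelled and WT libraries, 18 higher and 38 lower (58.9% of all genes, 30.4% higher and 28.6% lower). With β-catenin 22 of 69 were called in WT cells, 10 higher and 12 lower, against 11.9% of all genes. In KO-labelled cells 27 of 69 were called, 15 higher and 12 lower, against 12.6%. No receptor gene was called higher in WT cells and 4 of 10 were lower, among them Vpreb2 (−0.19 ± 0.03) and Igll1, another surrogate light chain gene (−0.16 ± 0.03), both with limma adjusted p of 0.0045 or less. In KO-labelled cells 3 of 10 were lower and 1 higher, with Vpreb2 at −0.22 ± 0.03 and Cd79b, a signalling chain of the receptor, at −0.18 ± 0.03 (limma adjusted p = 3.3e-04 and 0.0010).

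Beside the rises of Plcg2 and Prkcb, Itpr2, an IP3 receptor that releases calcium, rose by 0.43 ± 0.03 in WT and 0.44 ± 0.03 in KO-labelled cells on the log2 scale. Prkcq rose by 0.33 ± 0.04 and 0.51 ± 0.04. Beside Zap70, Lck rose by 0.81 ± 0.03 and 0.33 ± 0.03 and Ptpn22 by 0.88 ± 0.05 and 0.49 ± 0.05, while Ptprc, the phosphatase CD45, rose by 0.18 ± 0.03 and 0.25 ± 0.03. Themis2, a B cell signalling scaffold, fell by 0.29 ± 0.03 in WT and 0.18 ± 0.03 in KO-labelled cells, and Irf4 rose by 0.26 ± 0.03 and 0.51 ± 0.03. All of these had limma adjusted p of 0.0046 or less. Of 28 downstream genes 2 were called higher and 4 lower in WT cells, and 6 and 6 in KO-labelled cells. For the 16 relatives these counts were 6 and 2, and 4 and 3. For the 15 negative regulators they were 2 and 2, and 4 and 0. Over all genes 5.93% were called higher and 5.95% lower in WT cells, and 7.27% and 5.33% in KO-labelled cells. The difference between backgrounds was called for 10 of 69 pathway genes, 4 positive and 6 negative, against 4.53% of all genes (2.71% positive and 1.82% negative).

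Genes with the profile most like those of 5 of the 9 genes were sought among the 6074 genes that had a symbol and lay above the median of all gene means. Likeness was the Euclidean distance between profiles centred on each gene's mean over the 12 libraries, in log2 units. Nearest to Syk were Ctse (distance 0.16), Irf4 (0.21) and Filip1l (0.28). Akna (0.05), Ly6e (0.10) and Arl4c (0.13) were nearest to Blnk, and Uck1 (0.08), Arhgap30 (0.08) and Scarb2 (0.09) to Btk. For Lyn they were Steap3 (0.13), Tpst1 (0.13) and Exosc10 (0.14), and for Plcg2 Acss1 (0.16), Itpr2 (0.18) and Mesdc1 (0.21). All genes share the same 12 libraries, which fall into 4 groups.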

How the data were processed

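RNA was measured in 12 libraries of 4 groups, made with a stranded polyadenylated RNA kit from 280 ng of RNA and 10 PCR cycles. Day 1 after 4-OHT, taken here for all 12 libraries, comes from protocol wording that was written for chromatin experiments. The authors quantified reads with Salmon 1.4.0, aligned them with STAR 2.7.6 to GRCm38 (mm10) and used DESeq2 1.30.1, per the study's methods and processing notes. The deposited table holds 12151 genes, with log2 values that the authors had normalized. The transformation is not given in the sources used here, and any compression of low values would understate fold changes. No counts are given, so depth is unknown and the replicates alone set the precision.

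A linear model with 4 group means was fitted to all 12 libraries and all genes with limma 3.58.1 in R 4.3.3 (eBayes with trend), with Benjamini-Hochberg adjustment over all genes and a threshold of 0.05. The fit was tested on simulated data. Errors of changes are standard errors. Single values and within-library differences were compared with the exact two-sided permutation test. Replicates differed in every group (root mean square difference 0.07 to 0.10), with 0 identical genes.

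Every one of the 9 genes was named. Of the pathway lists, the named genes are, per list, up to 3 called genes with the largest absolute change between ERT2 KO and ERT2 WT, up to 2 for β-catenin in each background, and up to 6 called in the difference between backgrounds, besides 3 nearest profiles for each of 5 genes. Of these, 1 downstream gene is not reported here. The genes and lists were chosen with earlier results of these data known. Exon lengths are from GENCODE vM21 and overstate the length of any single transcript. Promoters are from RefSeq. Alternatives were 2 scalings, the libraries of the comparison alone, no trend, the replicate block, pseudocounts of 1 and 32 on unlogged values, a mean above 8, a threshold of 0.01, library weights and each library left out. The unlogged scale was added after seeing the data.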

Additional observations from a re-analysis of the deposited data

Results flagged for a closer look

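The change with β-catenin differed between the backgrounds, by the limma test of the difference itself, for 3 of the 9 genes. The log2 difference (KO-labelled minus WT) was 0.37 for Syk, 0.21 for Prkcb and −0.24 for Zap70. Among the other pathway genes, the 6 largest called differences were −0.48 for Lck, 0.43 for Rasgrp1, 0.40 for Lcp2, the adaptor SLP-76, −0.39 for Ptpn22, 0.25 for Irf4 and −0.25 for Lat, the linker for activation of T cells. Rasgrp1 stood at 10.97, 11.01 and 10.97 in ERT2 WT, 10.75, 10.78 and 10.71 in CRE WT, 9.08, 9.04 and 9.12 in ERT2 KO and 9.34, 9.30 and 9.17 in CRE KO libraries, so that it fell in one background and rose in the other. Lat rose in WT cells (0.23 ± 0.03) and had a change of −0.02 ± 0.03 in KO-labelled cells. No group was large enough to be searched for a library apart from the others.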

How the results depend on the processing

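Of 976 changes of the 9 genes recomputed under other settings, 945 kept their direction and their side of the threshold, 23 no longer passed it, 8 newly passed it and 0 changed direction. In the difference between backgrounds the number of the 9 genes called went from 3 to 5 with a pseudocount of 32, and to 1 (Syk) at an adjusted p under 0.01, where the other pathway genes went from 10 to 6. For β-catenin in the KO-labelled background that threshold left 4 of 7 genes, the rises of Syk, Plcg2, Prkcb and Zap70. Leaving out 1 library at a time gave 4 to 7 genes for β-catenin in the KO-labelled background and 2 to 5 for the difference between backgrounds. On the unlogged scale, added after seeing the data, the difference for Pik3ap1 reversed to −38.5 ± 53.7 units, a value smaller than its error. The cause of these shifts was not tested.

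Replicate numbers paired the samples weakly and unevenly. Same-numbered libraries correlated in their deviations from the group means between −0.07 and 0.31, over 0.1 in only 2 of 12 pairs. Between CRE KO and ERT2 KO libraries the same-numbered correlations (0.09, 0.13 and 0.08) exceeded every other-numbered one (−0.09 to −0.02). With the replicate block, 6 of 9 genes were called for β-catenin in the KO-labelled background (Lyn lost) and 4 of 9 in the difference (Blk gained), and 7, 9 and 9 in the other comparisons. Restricting to means above 8 removed Zap70. Weakly expressed genes are limited by the unknown depth and transformation.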

Other observations

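Beyond the genes chosen by rule, 4 other pathway genes were called in the difference between backgrounds, and they were picked out after their values were seen. Fyn, an SRC-family kinase, had a log2 difference of −0.18 ± 0.03, and Foxo1, a transcription factor restrained by phosphoinositide 3-kinase signalling, −0.18 ± 0.04. For Nfatc3, a calcium-responsive transcription factor, it was −0.15 ± 0.03, and for Src, the founding SRC-family kinase, 0.05 ± 0.01. In this order limma adjusted p was 0.0040, 0.0367, 0.0145 and 0.0460. Src was very weakly expressed, against a lowest value of 1.76 over all genes. Its mean log2 values were 3.24 in ERT2 WT, 3.24 in CRE WT, 3.25 in ERT2 KO and 3.31 in CRE KO libraries. The 5 T and NK markers in the table summed to 1965 to 2015 unlogged units in ERT2 WT and 1850 to 1909 in CRE WT libraries. The 8 of 10 markers of later B cell stages present summed to 1293 to 1370 over all 12 libraries, although Cd74 changed by −0.63 and H2-Ab1 by 0.58 on the log2 scale between ERT2 WT and ERT2 KO libraries (limma adjusted p = 8.7e-10 and 1.3e-08).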
